A study of Mus musculus with 6 samples.

Results

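The genes described here are 10 genes of the IL-10 and IL-12 families and of regulatory B cell biology, Il10, Il10ra, Il10rb, Il12a, Il12b, Ebi3, Il27, Il27ra, Tgfb1 and Havcr1, read in sorted peritoneal cavity (PC) B1a cells. They were chosen by name, and every non-control probe carrying one of these names was read, which gave 11 probes of the 55681 on the array and 10 of its 36163 gene names. Each gene had 1 probe except Havcr1, which had 2. All 10 symbols were also found in the RefSeq gene table.

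The data are 6 one-colour Agilent arrays, 3 for each of 2 genotypes, of B1a cells, sorted by flow cytometry with CD11b and CD5 among the markers, from 7-week-old female mice on the C57Bl/6 background. The knockout group was p40-/-CD25-/-, lacking Il12b (the p40 subunit) and Il2ra (CD25, the IL-2 receptor α chain, IL-2Rα). The control group was p40-/-CD25+/-, which lacked p40 as well and kept 1 functional copy of Il2ra, so the comparison addressed the loss of IL-2Rα in mice without IL-12p40. Both deletions were germline, so neither was limited to B cells, and each sample pooled at least 3 mice.

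IL-10 is a cytokine that dampens antigen presentation and inflammatory cytokine release, and B1a cells are known as a prominent source of it among B cells. It acts through a ligand-binding chain, encoded by Il10ra, and a shared chain, encoded by Il10rb. The IL-12 family is built by pairing: p35 (Il12a) with p40 makes IL-12, EBI3 with p28 (Il27) makes IL-27, and EBI3 with p35 makes IL-35, a cytokine reported from regulatory B cells. IL-27 signals through WSX-1 (Il27ra) and gp130, TGF-β1 (Tgfb1) is a suppressive cytokine that is secreted in latent form, and TIM-1 (Havcr1) is a surface receptor that marks IL-10-producing B cells.

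Each probe is a 60-base DNA strand fixed to the array. The 3 sequences shown are from the arrays' own annotation, in mm9 coordinates. The Havcr1 pair is shown because its 2 probes gave different readings, and the Tgfb1 probe because it was printed as 10 spots with the smallest spread between spots among the 3 probes printed so. The Havcr1 upstream probe (A_51_P371745) lies at chr11:46569677-46569736 on the + strand, was designed on a record from the BALB/c strain, and is free of stop codons in all 3 forward frames. The Havcr1 downstream probe (A_55_P2148210) lies 22379 bases further along at chr11:46592056-46592115, also on the + strand. Capitals mark a TGA at its very end, which closes a frame that is open over the rest of the probe. The Tgfb1 probe (A_51_P390715) lies at chr7:26489877-26489936 on the + strand.
Havcr1 upstream probe: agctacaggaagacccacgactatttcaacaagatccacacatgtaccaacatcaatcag
Havcr1 downstream probe: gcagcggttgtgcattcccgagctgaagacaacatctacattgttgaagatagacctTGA
Tgfb1 probe: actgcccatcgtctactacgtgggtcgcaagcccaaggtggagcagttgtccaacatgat

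The other probes are given by position in mm9. The Il10 probe lies at chr1:132920943-132921002 (+), Il10ra at chr9:45062237-45062296 (-), Il10rb at chr16:91425744-91425803 (+) and Il12a at chr3:68502346-68502405 (+). The Il12b probe lies at chr11:44227121-44227180 (+), Ebi3 at chr17:56096309-56096368 (+), Il27 at chr7:133736137-133736196 (-) and Il27ra at chr8:86554885-86554944 (-). Exon and UTR positions were not analysed here. Base composition differed among the probes: the Il12a probe had 50 A or T bases of 60 and held the letters ATTTA 4 times on its own strand, the Il10 and Il10rb probes held them 1 time each, and the others not at all. The GC content of the other 10 probes ran from 35.0% to 55.0%.

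All levels are log2 intensity minus the array's 75th percentile, so that 0 is the brightness of the spot at that percentile. The knockout arrays were dimmer before scaling, with 75th percentiles of 131, 66.5 and 162 intensity units against 264, 252 and 272 on control arrays. The share of spots detected above background was 39.7% to 45.9% in knockout cells and 47.2% to 50.6% in control cells. Brightness therefore moved with genotype, and its part in the results was not tested. The targeted gene, Il2ra, was at 1.62, 1.13 and 1.35 on control arrays and at -0.31, -0.59 and 0.86 on knockout arrays. It was lower on every knockout array than on any control array, but knockout 3 lay close to the controls, and whether this probe falls in the deleted part is not given in the sources used here. The B1a label was read against Cd5, a surface protein that sets B1a apart from other B cells and was used in the sort, which was at 3.70, 3.54 and 3.56 on control arrays and at 3.60, 3.05 and 3.45 on knockout arrays, above background on all 6. Itgam (CD11b), the other sort marker given here, was at 4.37, 4.21 and 4.05 on control arrays and at 4.73, 5.86 and 4.40 on knockout arrays. Its groups did not overlap (difference 0.79, adjusted p 0.219), as for 35.2% of all tested probes. Cd5 had a difference of -0.23 (adjusted p 0.424). Replicates are samples that the labels call triplicates, so p-values measure the spread between these samples.

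Across the array, 24751 probes were bright enough to test, and limma gave an adjusted p under 0.05 for 20 of them (0.0808%). At the study's own threshold, at least 2-fold with an unadjusted p of at most 0.05, 899 probes passed (3.63%), of which 65.5% were higher in knockout cells. That share was 44.4% after quantile normalization, 43.2% in the deposited log2 table, 81.3% after normexp with quantile normalization and 89.4% when arrays were scaled on detected probes. The last scaling moved the median difference of all tested probes from -0.09 to 0.12, so changes smaller than this depend on how arrays are scaled.

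Of the 11 member probes, 9 were tested, covering every gene but Il12a, and 8 were detected above background on each of the 6 arrays. None of the 9 passed the adjusted p (background 0.0808%), and none passed the 2-fold threshold (background 3.63%). An unadjusted p of at most 0.05 was found for 2 of them, Il10 and Il10ra, in opposite directions, where 24.5% of all tested probes reached it. Knockout and control arrays did not overlap for 3 of the 9 (Il10, Il10ra and Il10rb), against 35.2% of all tested probes. Of these, 1 was higher (background 15.6%) and 2 were lower (background 19.6%). These shares were close to or under the background. The count without overlap was 1 of 9 after quantile normalization and 6 of 9 after normexp with the 75th percentile. The share over all probes under these settings is not given here. The median difference of the 9 was -0.02, against -0.09 over all tested probes, with 4 probes higher and 5 lower. The largest difference of the 9, that of Il10, was 0.54 on the log2 scale.

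**Figure D1:**
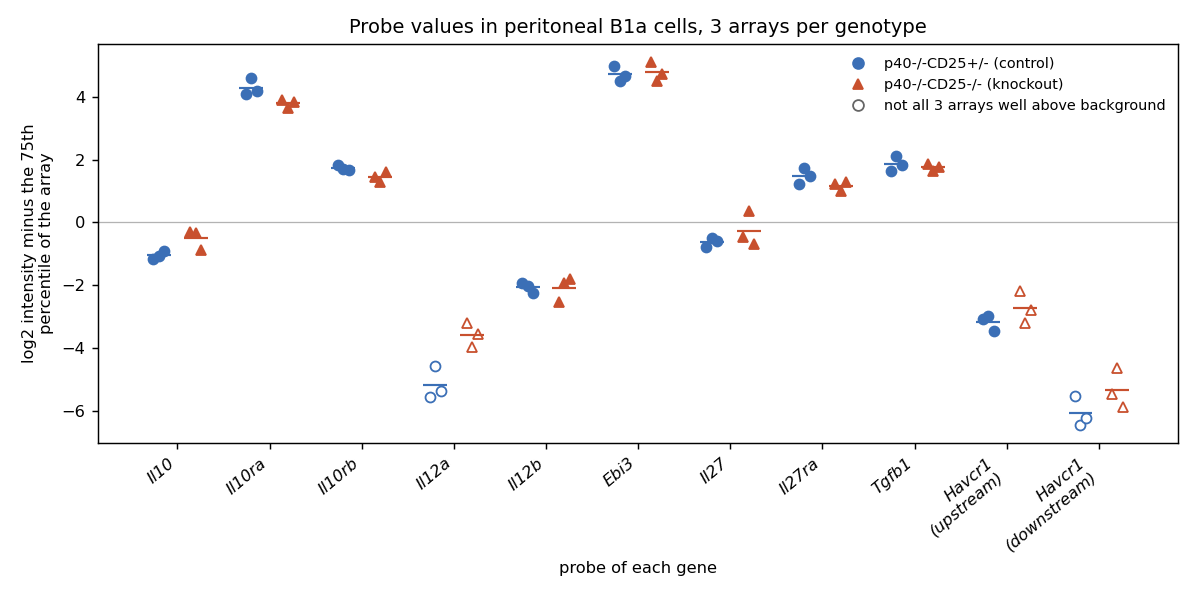
Log2 intensity relative to the array's 75th percentile (y axis) for each of the 11 probes (x axis), with circles for the 3 control arrays, triangles for the 3 knockout arrays and a line at each group mean. Open symbols mark a group whose 3 arrays were not all well above background, as for Il12a, the downstream Havcr1 probe and the knockout arrays of the upstream Havcr1 probe. Levels of different probes are not comparable.

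Il10 itself was read at -1.16, -1.07 and -0.90 on control arrays and at -0.29, -0.34 and -0.89 on knockout arrays. Knockout 1 and knockout 2 lay well above the controls, while knockout 3 sat level with control 3. The mean difference was 0.54 (SE 0.20, 95% interval 0.07 to 1.00), or 1.45-fold higher in knockout cells, with an unadjusted p of 0.0303 and an adjusted p of 0.170 by limma. Without knockout 3, whose Il2ra was also nearest to the controls, the difference was 0.73 with an adjusted p of 0.0810, the highest of the 6 differences with 1 array left out. The lowest was 0.43, without knockout 1 (adjusted p 0.303). In bulk RNA of sorted cells, fewer cells of a type that express a gene and less RNA per cell cannot be told apart.

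The Il10 probe was printed as 10 spots on each array, which gave a measure of the technical spread. The SD between spots was between 0.0574 and 0.140 on the log2 scale, over the 56 of 60 spots that were not marked as outliers, each of them detected above background. Spots of knockout 1 ran from -0.41 to -0.20 and those of knockout 2 from -0.42 to -0.26, above every control spot, the highest of which was at -0.78. Spots of knockout 3 ran from -1.01 to -0.72 and those of control 3 from -1.03 to -0.78, so these 2 arrays were not distinct. The Il10 groups also overlapped when outlier spots were kept, after quantile normalization with or without normexp, and in the deposited log2 table.

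The direction of the Il10 difference rested on scaling the arrays. Before scaling, its intensity was 118, 121 and 146 on control arrays and 107, 52.6 and 87.5 on knockout arrays, lower on each knockout array, as was the brightness of those arrays as a whole. After each of the 5 other scalings, the difference was positive, between 0.30 and 0.74.

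**Figure D2:**
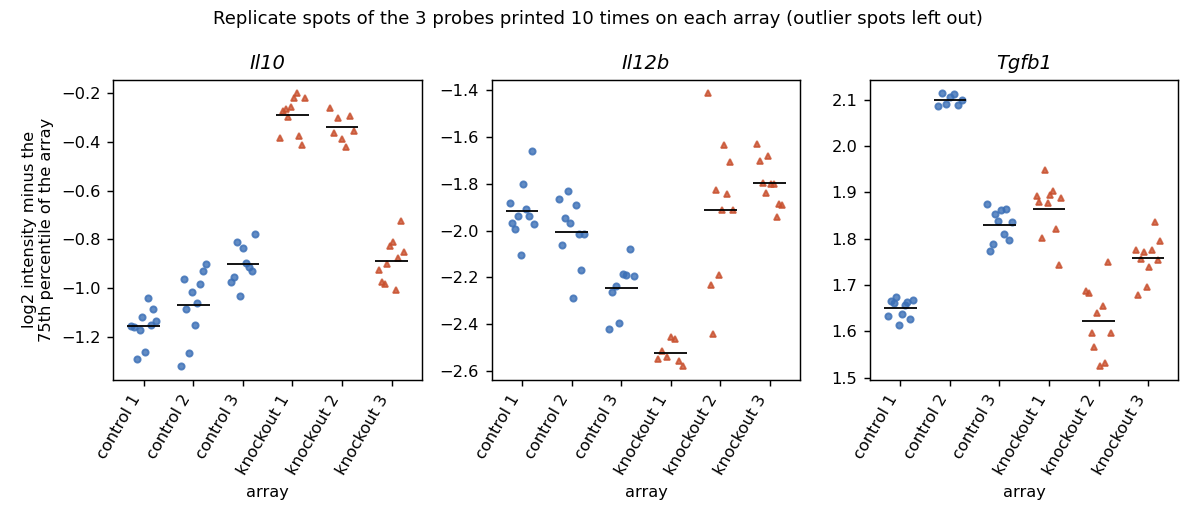
Log2 intensity relative to the array's 75th percentile (y axis, a separate range in each panel) of replicate spots of the Il10, Il12b and Tgfb1 probes on each of the 6 arrays (x axis), with circles for control, triangles for knockout and a line at each array's mean. For Il10, the spots of knockout 1 and knockout 2 lie above all control spots, and those of knockout 3 lie level with those of control 3.

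Both receptor chains of IL-10 were lower on each knockout array than on any control array, without passing the adjusted p. That separation was lost for both when arrays were scaled on detected probes, and for Il10ra after quantile normalization as well. Il10ra, the ligand-binding chain, was at 4.08, 4.58 and 4.18 on control arrays and at 3.89, 3.64 and 3.82 on knockout arrays. Knockout 2 was the lowest array and control 2 the highest. The difference was -0.50 (SE 0.18, 95% interval -0.92 to -0.07), 1.41-fold lower in knockout cells, with an unadjusted p of 0.0280 and an adjusted p of 0.166 by limma. Under other scalings it was -0.29 (detected probes, unadjusted p 0.149), -0.30 (quantile, 0.138), -0.32 (deposited log2, 0.124), -0.27 (normexp with quantile, 0.0973) and -0.77 (normexp with the 75th percentile, 0.000770). Leaving out control 2, the brightest array for this probe, left -0.35.

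Il10rb, the chain that IL-10 shares with IL-22 and the lambda interferons, was at 1.84, 1.70 and 1.68 on control arrays and at 1.44, 1.28 and 1.60 on knockout arrays. Knockout 3 lay next to the lowest control array. The difference of -0.30 (SE 0.15), or 1.23-fold lower, had an adjusted p of 0.254. Under 5 other scalings the Il10rb difference stayed negative, but it was -0.09 when arrays were scaled on detected probes.

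Ligand and receptor probes were also read against each other within an array, which cancels a factor common to the whole array but not a difference in scaling between dim and bright probes. The Il10 value minus the Il10ra value was -5.23, -5.65 and -5.09 on control arrays and -4.18, -3.98 and -4.71 on knockout arrays. Every knockout array was above every control array, by 1.03 on average, a 2.05-fold shift of the ratio. The exact two-sided permutation test gave p = 0.1, the smallest that 3 against 3 arrays allow, and 0.175 after Benjamini-Hochberg adjustment over the 7 pairs compared, which were chosen with results known. For Il10 minus Il10rb the shift was 0.84 and for Il10 minus Tgfb1 0.65, again without overlap and with exact permutation p = 0.1 for each. The shifts of Il10ra minus Il10rb (-0.20, exact permutation p = 0.4), Il27 minus Ebi3 (0.29, p = 0.7) and Ebi3 minus Il12b (0.09, p = 0.9) left the groups overlapping. The Il10 minus Il10ra shift was 0.77 after quantile normalization, 0.79 in the deposited log2 table, 1.23 after normexp with the 75th percentile and 0.58 after normexp with quantile normalization. Such a ratio does not show which of its members differed.

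**Figure D3:**
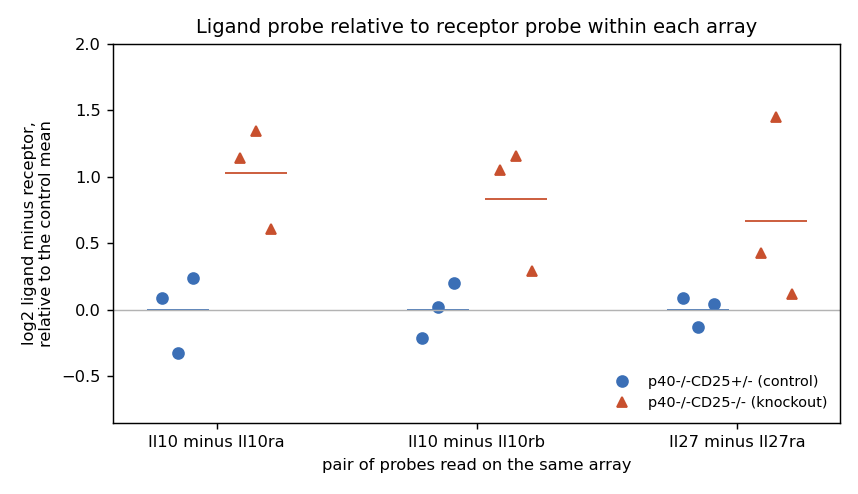
Log2 value of a ligand probe minus that of its receptor probe on the same array, relative to the mean of the control arrays (y axis), for 3 pairs (x axis), with circles for control, triangles for knockout and lines at group means. The Il10 minus Il10ra value is 1.03 higher on average in knockout arrays, and knockout 3 is the lowest knockout array in all 3 pairs.

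The Il10 pattern over the 6 arrays was followed most closely by 3 genes, among 20653 probes that all arrays detected. These were Tgif2, a transcriptional repressor that acts with SMADs (Pearson r = 0.992, difference 0.88), ND2, a mitochondrially encoded subunit of complex I (r = 0.991, difference 0.28), and Nrxn2, a neurexin adhesion protein (r = 0.984, difference 0.67). All 3 had knockout 3 beside the controls. On control arrays Tgif2 was at -3.13, -3.13 and -2.93 and Nrxn2 at -2.97, -2.98 and -2.65. These levels were near the limits of detection of the knockout arrays (-3.20, -2.40 and -3.67). Knockout 3 was also the brightest knockout array, with a 75th percentile of 162, and the part of brightness in this pattern was not tested. Under normexp with the 75th percentile the lowest of the 3 values of r was -0.074. With so many probes and 6 arrays, high values of r are found among the closest matches whatever the gene, and these are given as a description.

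Of the subunits of IL-12, IL-27 and IL-35, Ebi3, Il27 and Il12b could be tested, and none of the 3 showed a genotype difference beyond the spread between arrays. Ebi3, the subunit shared by IL-27 and IL-35, was at 4.96, 4.50 and 4.67 on control arrays and at 5.10, 4.51 and 4.73 on knockout arrays. The groups overlapped throughout. The difference was 0.07 (SE 0.21) with an adjusted p of 0.845, and the 95% interval, -0.42 to 0.55, leaves room for changes of either sign.

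Il27, which encodes the p28 subunit of IL-27, was at -0.77, -0.50 and -0.59 on control arrays and at -0.46, 0.35 and -0.69 on knockout arrays. Only knockout 2 stood apart, and the other knockout arrays lay at or within the control range. The difference was 0.35 (SE 0.27) with an adjusted p of 0.416, and 0.05 without knockout 2. Some myeloid genes stood apart on knockout 2 as well: Marco was at 1.64, 4.31 and 1.68 on knockout 1, 2 and 3, against 2.48, 1.69 and 0.70 on control arrays. Others did not, since Csf1r was at 3.35 on knockout 2 and 3.52 on control 1, and Lyz2 at 1.46 on knockout 2 and at 2.56 and 2.91 on control 1 and control 2. Their part in the Il27 value was not tested.

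Il12a, which encodes the p35 subunit of IL-12 and IL-35, was detected above background on 1 array alone, knockout 3. It was not tested. Its readings were -5.55, -4.56 and -5.34 on control arrays and -3.20, -3.95 and -3.55 on knockout arrays, and no fold is given between readings near background. On the knockout arrays the lowest probe that passed background stood at -3.20, -2.40 and -3.67, and on control arrays at -4.44, -4.48 and -3.98. The limit of detection on this scale was thus higher on the dimmer knockout arrays, and the Il12a readings were higher on them as well.

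Il12b, the gene deleted in both genotypes, was still read above background on all 6 arrays, in 54 of the 55 spots kept. It was at -1.92, -2.01 and -2.25 on control arrays and at -2.52, -1.91 and -1.80 on knockout arrays. Knockout 1 was the lowest array, and knockout 3 the highest. The difference was -0.02 (SE 0.22) with an adjusted p of 0.957. The sources used here do not say whether this probe lies in the deleted part of Il12b, so its signal checks neither the genotype nor the absence of p40.

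Il27ra, the WSX-1 chain of the IL-27 receptor, was at 1.24, 1.73 and 1.46 on control arrays and at 1.21, 0.99 and 1.29 on knockout arrays. The groups overlapped between knockout 3 and control 1. The difference was -0.31 (SE 0.18), 95% interval -0.73 to 0.11, with an adjusted p of 0.300, and it was -0.18 without control 2 and -0.10 when arrays were scaled on detected probes. Il27 minus Il27ra within an array was -2.01, -2.23 and -2.05 on control arrays and -1.67, -0.64 and -1.98 on knockout arrays, a mean shift of 0.67 (exact permutation p = 0.1). The groups did not overlap, but knockout 2 made up most of the shift and knockout 3 lay beside the controls.

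**Figure D4:**
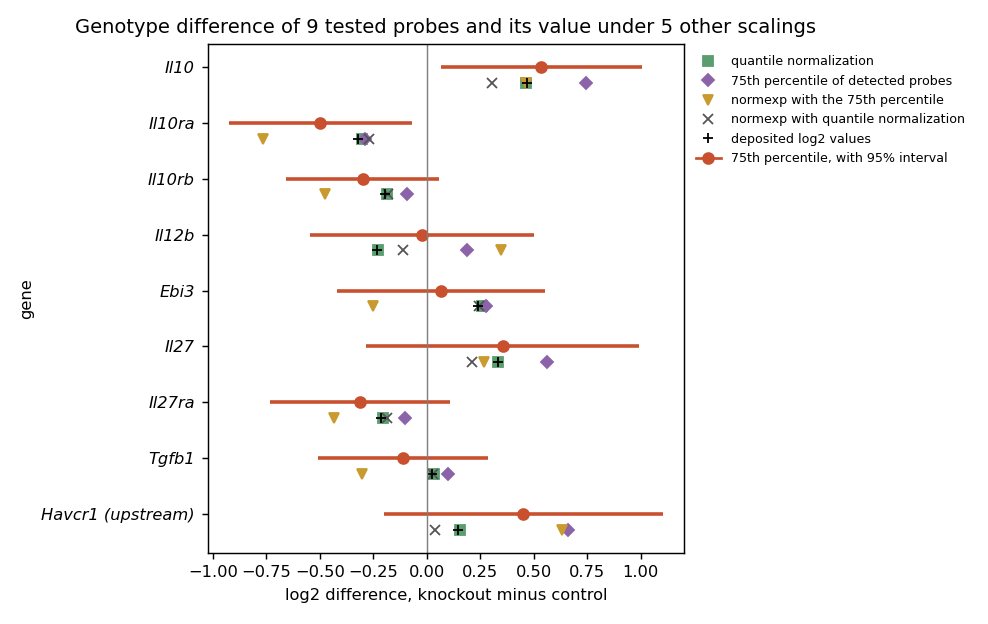
Log2 difference between knockout and control (x axis) for the 9 tested probes (y axis), with large circles and 95% intervals for scaling on the 75th percentile and small symbols for 5 other ways of scaling. The intervals of Il10 and Il10ra exclude 0, on opposite sides. The symbols of Tgfb1, Il12b and Ebi3 fall on both sides of 0.

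Tgfb1, whose product suppresses lymphocyte proliferation, was at 1.65, 2.10 and 1.83 on control arrays and at 1.86, 1.62 and 1.76 on knockout arrays. The knockout values lay between or beside those of the controls, and control 2 was the highest array. The difference was -0.11 (SE 0.17) with an adjusted p of 0.682, and it was 0.01 without control 2. Its spots had an SD of 0.0116 to 0.0728, smaller than the SE between arrays.

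For Havcr1, which encodes TIM-1, the probes disagreed in detection. The upstream probe was at -3.06, -2.98 and -3.45 on control arrays and at -2.16, -3.19 and -2.79 on knockout arrays, well above background on all 3 control arrays and on 2 knockout arrays. Knockout 2 lay among the controls and the other knockout arrays above them. Its difference was 0.45 (SE 0.28) with an adjusted p of 0.322. It was 0.18 without knockout 1 and 0.69 without knockout 2. Under other scalings it was 0.15 (quantile), 0.14 (deposited log2), 0.040 (normexp with quantile), 0.66 (detected probes) and 0.63 (normexp with the 75th percentile). The downstream probe was well above background on no array, at -5.53, -6.42 and -6.22 on control arrays and at -5.46, -4.62 and -5.87 on knockout arrays, and was not tested. Whether the BALB/c record behind the upstream probe differs from C57Bl/6 at this place was not tested.

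RNA of other cell types was measured beside these genes, since macrophages and T cells also express several of them. Of 12 macrophage and monocyte markers, 10 were tested, and their summed level, linear and relative to the 75th percentile, was 20.3 to 47.8 on control arrays and 21.6 to 54.1 on knockout arrays. All 12 were above background on at least 1 array, and each of the 10 tested on all 6. Lyz2 passed the 2-fold threshold with overlapping groups (-1.08, adjusted p 0.164), while Marco had a difference of 0.92 (adjusted p 0.449). Of 10 T cell markers, 6 were tested, with sums of 4.90 to 5.59 on control and 5.77 to 7.65 on knockout arrays, which did not overlap. Cd3e, a subunit of the T cell receptor complex, was at 0.50, 0.26 and 0.51 on control arrays and at 0.75, 1.16 and 1.15 on knockout arrays, while Themis was above background on none. The other CD3 chains differed in sign, with 1.41 for Cd3d, which passed the 2-fold threshold with overlapping groups (adjusted p 0.189), and -0.28 for Cd3g (adjusted p 0.414). The 3 plasma cell markers tested of 4 summed to 6.70 to 8.96 on control and 1.41 to 5.32 on knockout arrays, without overlap. Jchain was the brightest of them, with a mean control level of 2.56, against 0.59 for Prdm1 and -3.52 for Sdc1. Among them Jchain, the joining chain of secreted antibodies, passed the 2-fold threshold without overlap (-1.92, adjusted p 0.133), while Prdm1 overlapped (-0.48, adjusted p 0.343) and Sdc1 was above background on no knockout array. The dendritic cell list had 1 tested gene of 6, Siglech, whose linear level was 61.1 to 66.5 on control and 71.8 to 127 on knockout arrays, without overlap. Of the untested genes of that list, Clec9a and Xcr1 were above background on no array, Flt3 and Zbtb46 on at most 1, and Itgax on at most 3. The level given is therefore that of Siglech alone and not of the list. The mast cell gene Mcpt4 passed the 2-fold threshold with overlapping groups (-2.01, adjusted p 0.203), detected on 3 control arrays and 1 knockout array. The other tested genes of its granulocyte and mast cell list differed in sign, with -1.27 for Cpa3 (adjusted p 0.296) and 0.46 for Csf3r (adjusted p 0.276). The sums of that list, 108 to 118 on control and 115 to 222 on knockout arrays, overlapped, as did those of the B2 cell and NK cell lists. Groups did not overlap for 35.2% of all tested probes, so such a separation is common here. The part of these cell types in the Il10 and receptor values, and in those of the genes below, was not tested.

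The genes around these cytokines were read from 7 lists holding 96 genes, of which 74 were tested with 1 probe each. At the 2-fold threshold 3 were higher and 2 lower, against 2.26% and 1.28% of all genes tested in this way, and none passed the adjusted p. With normexp and the 75th percentile, with trend and robust estimation, and with array weights, Tbx21, Sema4a, Bhlhe40 and Lag3 did pass it. Il6st passed it with normexp and the 75th percentile (limma adjusted p 0.00696) and with array weights (0.0345). With array weights Il12rb1 (0.0308) and Tgfbr3 (0.0222) passed as well. Of the 2 lower calls, that of Tgfbr3 rests on knockout readings near background and shows no 2-fold change. The median difference over all genes was -0.12.

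IL-10 signals through JAK1, TYK2 and STAT3, with SOCS3, BCL3 and HMOX1 among its target genes. All 8 genes of this list were tested, none passed the 2-fold threshold, and their median was 0.12. STAT3, the main transducer, was at 5.39, 4.88 and 5.33 on control arrays and at 5.29, 5.20 and 5.32 on knockout arrays, a difference of 0.07 (adjusted p 0.810). Of the 9 other cytokines and receptors of the IL-10 family, such as Il22 and Il20ra, 6 were above background on no array and 1 was tested, Il20rb, with a difference of -0.11.

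Of 16 other genes of the IL-12 and IL-6 families and their signalling, 10 were tested, with a median of -0.15. Tbx21, which encodes T-bet, the transcription factor that IL-12 and interferon gamma induce, was at -2.73, -3.68 and -3.83 on control arrays and at -1.43, -1.91 and -1.08 on knockout arrays. The groups were wide apart. The mean control level, -3.42, lay within the limits of detection of the knockout arrays, -3.67 to -2.40, although all 6 arrays detected Tbx21. Its difference of 1.94 (SE 0.34) passed the 2-fold threshold, with an adjusted p of 0.0829. After normexp with quantile normalization it was 0.53, under the threshold. The receptor chains that work with the genes above are given too, although outside the rule for naming and with values known. Il12rb1, which binds p40, had a difference of 0.54 (SE 0.20, adjusted p 0.164, range over the alternatives 0.33 to 0.75), and Il6st, the gp130 partner of WSX-1, had a difference of -0.80 (SE 0.25, adjusted p 0.134, range -1.08 to -0.59). For both, the groups did not overlap, as for 35.2% of all tested probes, and both passed the adjusted p under the alternatives given above. Il23a, the p19 partner of p40, was above background on no array.

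TGF-β ligands, activators, receptors and SMADs made up 24 genes, of which 20 were tested, with a median of -0.14. The 1 lower call was that of Tgfbr3, the betaglycan co-receptor, at -2.99, -3.30 and -3.38 on control arrays and well above background on no knockout array. No fold is given for it, since its mean control level was under the mean limit of detection of the knockout arrays. Among 5 TIM family genes and ligands, 4 were tested with a median of -0.33. Sema4a, a semaphorin that binds TIM-2, was at 3.00, 2.80 and 2.73 on control arrays and at 0.96, 1.21 and 1.84 on knockout arrays. It was lower on each knockout array by a wide margin, with a difference of -1.50 (SE 0.24, adjusted p 0.0769).

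Of 16 transcriptional regulators of Il10, 15 were tested, with a median of -0.26 and 1 gene past the 2-fold threshold. Bhlhe40, a repressor of Il10 in T cells, was at -0.58, -1.37 and -0.53 on control arrays and at 0.70, 0.33 and 0.50 on knockout arrays. All knockout arrays were above all controls, with a difference of 1.34 (SE 0.25, adjusted p 0.0890), which was 0.98 after normexp with quantile normalization, under the threshold. Of 18 surface and effector genes linked to regulatory B cells, 16 were tested, with a median of -0.12. Lag3, an inhibitory receptor found on IL-10-producing plasma cells, was at -3.23, -3.28 and -3.68 on control arrays and at -1.08, -1.69 and -2.57 on knockout arrays. It was higher on each knockout array, with a difference of 1.62 (SE 0.36, adjusted p 0.101), which was 0.49 after normexp with quantile normalization. The mean control level of Lag3, -3.40, lay within the limits of detection of the knockout arrays, -3.67 to -2.40, although all 6 arrays detected it.

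**Figure D5:**
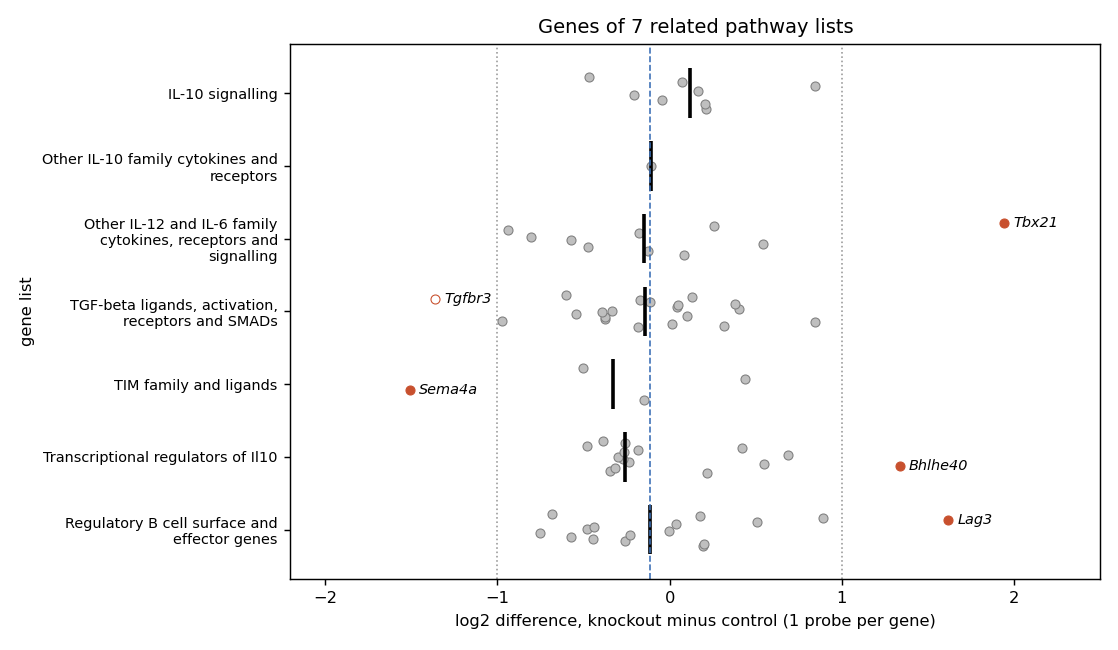
Log2 difference between knockout and control (x axis) of the 74 tested genes in 7 lists (y axis), 1 point per gene, with a black bar at each list's median, a dashed line at the median of all genes and dotted lines at 2-fold. Filled and named points passed the 2-fold threshold, Tbx21, Bhlhe40 and Lag3 above 0 and Sema4a below. The open symbol is Tgfbr3, which no knockout array detected, so its position is not a measured difference.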

How the data were processed

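RNA of sorted PC B1a cells was labelled with Cy3 and hybridized to Agilent arrays, and the authors read them with Feature Extraction 10.7.1.1. For each array they deposited spot intensity (gProcessedSignal, background-subtracted and not scaled between arrays). They also deposited a table of log2 values, whose 6 columns have the same sorted values within 0.005, as quantile normalization gives. Probe positions were taken from the array annotation (mm9).

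The main values were log2 intensity minus the array's 75th percentile, without control and outlier spots, averaged over the spots of a probe. For a probe to enter the test, the 3 arrays of 1 genotype or the other had to detect it well above background, and each genotype needed 2 or more arrays with a usable spot. Genotypes were compared with lmFit and eBayes in limma 3.58.1 (R 4.3.3), with genotype as the only term and Benjamini-Hochberg adjustment over all 24751 tested probes. Each list gene was represented by its probe with the highest mean. The script was tested on simulated data. Members and gene lists were chosen with earlier results of these data known. Genes named are all members, pathway list genes past the adjusted p or the 2-fold threshold, the 3 genes most like Il10, and the cell type markers the text needed. Stat3, Il12rb1, Il6st, Il20rb, Il22, Il20ra and Il23a were added for their roles, with values known. Precision is limited by 3 arrays per group. Alternatives covered scaling, background correction (normexp with an offset of 50), filters, outlier spots, probe choice, the test, array weights, the replicate block and leaving out each array. Figures were drawn with matplotlib 3.10.9.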

Additional observations from a re-analysis of the deposited data

How the results depend on the processing

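Il10, Il27 and Havcr1 stayed higher, and Il10ra, Il10rb and Il27ra lower, under the 19 alternatives run (18 for Havcr1). Alternatives that changed only the filter, probe choice, test or replicate block left these differences as they were. They therefore say nothing about the sign, and the settings with 1 array left out share most of their arrays. With normexp and the 75th percentile, 2 member probes passed the adjusted p, Il10ra (-0.77, adjusted p 0.0132) and Havcr1 (0.63, adjusted p 0.0206), with 9327 probes over the array; with array weights 1 did, Havcr1 (0.90, adjusted p 0.0431), with 3998. The smallest differences were -0.27 for Il10ra and 0.040 for Havcr1, both after normexp with quantile. Over all 19, the adjusted p ran from 0.0132 to 0.371 for Il10ra and from 0.0550 to 0.362 for Il10. Reversed values were, for Tgfb1, 0.034 (quantile), 0.097 (scaling on detected probes), 0.027 (normexp with quantile), 0.024 (deposited log2) and a range of -0.22 to 0.0087 leaving out arrays (positive without control 2); for Il12b, 0.19 (detected probes), 0.35 (normexp with the 75th percentile) and -0.16 to 0.20 (positive without control 1, control 2 or knockout 1); for Ebi3, -0.25 (normexp with the 75th percentile) and -0.092 to 0.20 (negative without control 2 or knockout 1); for Tgfbr3, 0.29, and for the lowest r of the probes most like Il10, -0.074 (both normexp with the 75th percentile). The Tgfbr3 value rests on a gene that no knockout array detected, so it is not a measured difference. The causes of these reversals were not tested. Probes past the adjusted p numbered 6 (quantile; deposited log2), 32 (detected probes), 55 (normexp with quantile), 2 (no filter on dim probes), 94 (filter on all 6 arrays), 7 (1 probe per gene), 1 (equal-variance t) and 980 (trend and robust estimation), and 2 to 136 when each array was left out, the most without knockout 3. Probes past 2-fold numbered 1403 (detected probes), 233 (normexp with the 75th percentile), 192 (normexp with quantile), 18975 (no filter), 591 (filter on all 6 arrays) and 850 to 1581 leaving out arrays, the most again without knockout 3. Without a filter on dim probes, 98.2% of the 2-fold calls were higher in knockout cells. List genes past a threshold numbered 5, or 1 (normexp with quantile), 9 (array weights) and 4 to 8 leaving out arrays. The Il2ra difference passed the adjusted p with normexp and the 75th percentile (-1.10), with array weights (-1.40) and without knockout 3 (-1.82, in a range of -1.82 to -1.09 leaving out arrays). The Il10 minus Il10ra shift was 0.58 with normexp and quantile and 0.87 to 1.24 leaving out arrays. With the replicate block, 1 probe and no member passed the adjusted p. Same-numbered arrays correlated at 0.175, 0.0572 and 0.120 in their deviations, and 6 of 6 arrays correlated best with their own number. These matches are not independent, since each pair is counted from both of its arrays, and the labels state no pairing. Detection limits what can be read of Il12a and Havcr1. Il12a was above background on 0 control arrays and 1 knockout array, and the downstream Havcr1 probe on 0 of either. The upstream Havcr1 probe was above background on 3 control arrays and on 2 of the dimmer knockout arrays.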
